A study of Mus musculus with 118 samples.

Results

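The genes described here are somatostatin (*Sst*) and 8 genes whose products are made alongside it in cortical interneurons: the neuropeptide genes *Npy*, *Cort*, *Tac1*, *Penk*, *Pdyn*, *Cck* and *Vip*, and *Nos1*, which encodes an enzyme that makes nitric oxide. They were chosen by name, as transmitters and peptides known from this class of cells, with earlier results of these data known. They are 9 of the 23998 gene symbols in the files, and each has 1 entry. Their reads were followed in single cells, all but 5 of those sequenced. Of the 5 left out, 4 had reads of fewer than 1500 genes and 1 had more reads of *Slc17a7*, a marker of glutamatergic neurons, than of the inhibitory neuron genes *Gad1* and *Gad2* together.

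All cells came from SOM-Cre/Ai9 mice, in which Cre recombinase made under the control of the somatostatin gene switches on the red fluorescent protein tdTomato from the Ai9 reporter. The label is permanent, so that a cell that made somatostatin only earlier in life is labelled too. Fluorescent (SOM+) cells in slices of adult cortex were recorded with a patch pipette, their cytosol was drawn into it, and the RNA was converted to cDNA and sequenced without molecular identifiers (Patch-seq). The kept cells were 42 from layer 4 (L4) of the primary visual cortex (V1), 38 from L4 of the primary somatosensory cortex (S1), 17 from V1 L5 and 16 from S1 L5, and no group differed from another by treatment or genotype. The labels give no animal, age or sex for a cell. Each area and layer was therefore taken as 1 sample without replicates, and no p-value was computed from cells. The date in a cell's label was taken as its recording day, which gave 9 days in 2 series. The L5 cells were all from the first series, days 1 to 6. Days may share an animal, and the spread over days is given as a batch check.

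The kept cells held 97904 to 3295232 reads on genes (median 1113591) and 1978 to 9200 detected genes (median 6322). Of 8 genes listed for SOM+ cells, *Gad1* was read in every kept cell, *Gad2* in all but 2, *Sst* in all but 4 and *Satb1* in all but 7. *Slc32a1* was read in all but 8, *Sox6* in 99 cells, *Elfn1* in 95 and *Lhx6* in 91. The list does not single out SOM+ cells: *Gad1* and *Gad2* are genes of inhibitory neurons and entered the rule that kept cells. The 4 cells without an *Sst* read were all from S1 L4, and differences that changed by over 1 log2 unit or crossed that size without them are given both ways. Levels are log2(CPM + 1), where CPM is the count scaled to a fixed total of reads per cell. Levels of different genes were compared only in RPKM, which also divides by gene length. Intervals are 95% Clopper-Pearson intervals for shares of cells and cover counting error only, since reads copied by PCR are not independent molecules.

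Neuropeptides are cut from longer precursor proteins, stored in dense-core vesicles and released on strong or repeated firing, in addition to the fast transmitter GABA. They act on G protein-coupled receptors, often at a distance from the release site. Somatostatin and cortistatin, the product of *Cort*, bind the same family of receptors and dampen excitability. Neuropeptide Y and the opioid peptides dynorphin (*Pdyn*) and enkephalin (*Penk*) also act mostly through inhibitory receptors, while substance P (*Tac1*), cholecystokinin (*Cck*) and vasoactive intestinal peptide (*Vip*) act mostly through excitatory ones. In the cortex, *Vip* and much of *Cck* are known from interneurons other than SOM+ cells, *Tac1* from parvalbumin cells, and *Nos1* together with *Npy* and *Chodl* from a rare type of SOM+ cell with long axons.

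*Sst* lies on the minus strand of chr16:23889573-23890958 (GRCm38) and has 2 exons. The sequence in front of it is the textbook example of a gene switched by cyclic AMP, through the element TGACGTCA bound by the factor CREB. Promoter sequences from RefSeq (GRCm38.p6, from 250 bases before to 50 bases after the start) were at hand for 8 of the 9 genes, all but *Penk*. TGACGTCA, which reads the same on both strands, was found in 588 of 32851 promoters (1.79%), and *Sst* was the only one of the 8 genes with it. Its first base lies 48 bases before the RefSeq start. The 30 bases around it, chr16:23890874-23890903 on the minus strand, are shown with the element in capitals. The GENCODE model of *Sst* starts further upstream than the RefSeq start, so that these bases lie in its first exon. Beside it stands the stretch of *Vip*, chr10:5639128-5639157 on the plus strand, where only the shorter form TGACG is present.
Sst: gcctccttggcTGACGTCAgagagagagtt
Vip: gatcactactgTGACGtctttcggggagcc

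The shorter form, TGACG or CGTCA on the other strand, was found in 20.8% of all promoters and is part of the full element. It was present for *Sst*, *Cort*, *Tac1*, *Cck*, *Vip* and *Nos1*. It was absent from the windows of *Npy* and of both *Pdyn* starts, the genes that with *Sst* were read most often. The 120 bases before the start are shown for *Npy* (chr6:49822590-49822709, plus strand), *Cort* (chr4:149126764-149126883, minus strand) and the first *Pdyn* start (chr2:129699939-129700058, minus strand), with CGTCA in capitals. *Npy* and *Pdyn* are printed because their levels come closest to *Sst* below, and *Cort* because its peptide is the nearest relative of somatostatin. TATAAA or TTTATA, the letters of a TATA box, were found in 13.6% of all promoters and among these genes only for *Vip*, at 3 places. A match describes letters and is not a site shown to be in use.
Npy: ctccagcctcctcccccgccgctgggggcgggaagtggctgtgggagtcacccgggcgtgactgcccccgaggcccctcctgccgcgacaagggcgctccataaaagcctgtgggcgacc
Cort: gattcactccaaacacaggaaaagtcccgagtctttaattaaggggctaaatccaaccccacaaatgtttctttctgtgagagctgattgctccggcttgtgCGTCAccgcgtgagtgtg
Pdyn: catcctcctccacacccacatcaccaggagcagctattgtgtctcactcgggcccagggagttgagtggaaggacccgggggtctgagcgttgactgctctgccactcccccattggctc

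The 9 genes fell into 3 abundant ones, 3 found in part of the cells and 3 that were nearly absent. On the RPKM scale, *Sst* had a median of 2027 over the kept cells (quartiles 953 and 3069), *Npy* 1142 (400 and 2360), *Pdyn* 260 (0 and 635) and *Cort* 3.9 (0 and 50.3). The medians of *Cck*, *Nos1*, *Penk*, *Tac1* and *Vip* were 0, with means of 23.6, 1.6, 0.5, 4.2 and 0.0. The quartile ranges of neighbours in the order *Sst*, *Npy*, *Pdyn*, *Cort* overlapped. Within single cells, the order held more often than not: *Sst* was above *Npy* in 83 cells, below it in 27 and equal in 3, *Npy* was above *Pdyn* in 84 and below it in 21, and *Pdyn* was above *Cort* in 79 and below it in 23. In V1 L5 this last order did not hold, with *Pdyn* above *Cort* in 6 cells and below it in 7. *Sst* had the highest RPKM of the 9 genes in 78 cells, *Npy* in 25, *Pdyn* in 7, and *Cort*, *Penk* and *Tac1* in 1 each. The cells led by *Cort*, *Penk* and *Tac1* were S1 L4 cells without an *Sst* read, and *Penk* led with only 3 reads. Ranked among all symbols of a cell, *Sst* had a median rank of 6 and *Npy* of 14, and *Sst* stood above *Gad1*, the gene for the enzyme that makes GABA, in 98 cells.

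*Sst* was read in 42 of 42 V1 L4, 34 of 38 S1 L4, 17 of 17 V1 L5 and 16 of 16 S1 L5 cells, or 96.5% of all (91.2 to 99.03). Its level in log2(CPM + 1) ranged from 6.65 over a median of 10.25 to 12.20 in V1 L4 and from 0 over 9.82 to 11.22 in S1 L4. In V1 L5 it ranged from 5.24 over 10.76 to 13.49, and in S1 L5 from 6.42 over 10.37 to 11.75. The groups overlapped over nearly their whole range, and apart from the 4 cells at 0 no cell was below 5.24. Every cell with an *Sst* read had at least 10 of them.

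*Npy*, on the plus strand of chr6:49822710-49829507, encodes neuropeptide Y, an abundant peptide of the cortex. All but 9 kept cells had it (92.0%, 85.4 to 96.3), 41 of V1 and 35 of S1 in L4 and 14 of each area in L5. Its median level was 9.25, 9.19, 9.85 and 9.67 in V1 and S1 of L4 and then of L5, its highest 12.34, 11.53, 13.71 and 11.46, and its lowest 0 in each. The spread was wider in L5 than the medians show, with an SD over cells of 4.33 in V1 L5 and 4.12 in S1 L5 beside 2.24 in V1 L4 and 2.81 in S1 L4.

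*Pdyn*, on the minus strand of chr2:129686565-129699844, encodes the precursor of the dynorphins, which act on the kappa opioid receptor. It was nearly all or none. Reads were found in 84 cells (74.3%, 65.3 to 82.1), and 83 of them had at least 10. They were found in 35 of 42 V1 L4 cells (83.3%, 68.6 to 93.0), 31 of 38 S1 L4 cells (81.6%, 65.7 to 92.3) and 12 of 16 S1 L5 cells (75%, 47.6 to 92.7), but in 6 of 17 V1 L5 cells (35.3%, 14.2 to 61.7). These intervals cover counting error only and do not test a difference between groups, and the L4 groups also hold cells of the second series. The median level was 9.50 in V1 and 9.55 in S1 of L4, and 0 in V1 and 8.77 in S1 of L5, and the highest 12.14, 13.27, 10.73 and 12.51. Where it was present in V1 L5, its level was like that of the other groups: the 6 cells ranged from 9.25 to 10.73 with a mean of 10.02. Over the cells with a read it was 9.71 in V1 L4, 9.93 in S1 L4 and 8.78 in S1 L5.

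*Cort*, on the minus strand of chr4:149125034-149126763, encodes cortistatin. It had reads in 64 cells (56.6%, 47.0 to 65.9), 27 of V1 and 18 of S1 in L4 and 11 and 8 in L5. With a minimum of 10 reads the number fell from 64 to 42. Its median level was 1.66, 0, 2.87 and 1.04 in the same order of groups, and its highest 6.34, 8.11, 9.54 and 7.50. *Cort* was thus lower than *Npy* in RPKM in all but 9 cells, equal in 6 of these and higher in 3. The pooled level of V1 L5, 87.3 CPM, rested on 1 cell that gave 68.7% of the group's *Cort* reads.

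*Cck*, on chr9:121489824-121495694 (minus strand), encodes cholecystokinin and is also strong in cortical pyramidal cells. Its reads were found in 38 cells (33.6%, 25.01 to 43.1), 12 of V1 and 15 of S1 in L4 and 6 and 5 in L5. The median was 0 in each group and the highest levels were 6.54, 7.63, 7.77 and 7.24. *Nos1*, on chr5:117781032-117958840 (plus strand), was read in 15 cells (13.3%, 7.62 to 20.9), 6, 2, 4 and 3 in the same order, with highest levels of 7.56, 6.01, 6.35 and 6.78. All 15 cells with *Nos1* also had *Sst* and *Npy* reads, which all but 4 and all but 9 of the kept cells had. None of the 15 had a read of *Chodl* or *Tacr1*, the other markers of the long-range type, and *Chodl* was not read in any kept cell. The *Nos1* reads, 1 to 203 per cell, therefore came from cells without the defining marker of that type.

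*Tac1*, *Vip* and *Penk* were nearly absent. *Tac1* (chr6:7554879-7565834, plus strand) was read in 3 cells (2.65%, 0.55 to 7.56), and 1 S1 L4 cell held 572 of its 574 reads, or 99.7%. *Vip* (chr10:5639218-5647617, plus strand) was read in 3 cells, with 1, 1 and 6 reads. *Penk* (chr4:4133531-4138819, minus strand), the enkephalin precursor, was read in 7 cells (6.19%, 2.53 to 12.3), with 1 to 8 reads in 5 of them and 41 and 55 in the 2 others. In V1 L5, *Tac1* and *Penk* were read in 0 of 17 cells, which allows a share of up to 17.6%, taken as 3 cells of the total (the Clopper-Pearson upper bound is 19.5%). *Penk* was read in 0 of 16 S1 L5 cells (up to 18.8%, upper bound 20.6%) and *Vip* in 0 of 38 S1 L4 cells (up to 7.89%, upper bound 9.25%). The exons of *Penk* share 233 bases with A830012C17Rik and those of *Nos1* share 268 bases with Gm26995, both on the opposite strand. The strand setting of the counting is not given in the sources used here, so reads in these stretches cannot be told apart. The other 7 genes overlap no annotated exon.

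**Figure D1:**
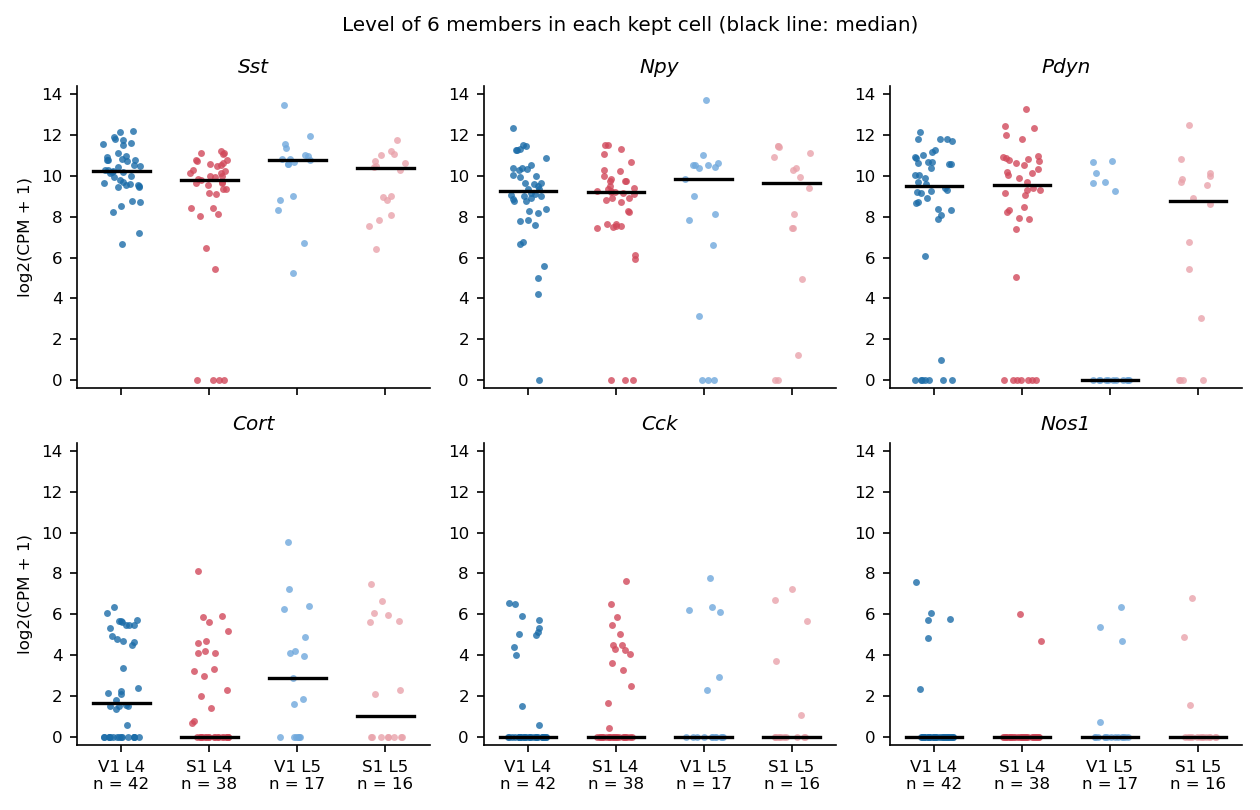
Level of the 6 more often read genes, in log2(CPM + 1), for each kept cell of L4 (42 cells of V1 and 38 of S1) and L5 (17 and 16). Each point is a cell and the black line the group median. *Sst* and *Npy* sit near 10 in most cells, *Pdyn* splits into cells at 0 and cells mostly between 8 and 13, and *Cort*, *Cck* and *Nos1* are at 0 in many or most cells.

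**Figure D2:**
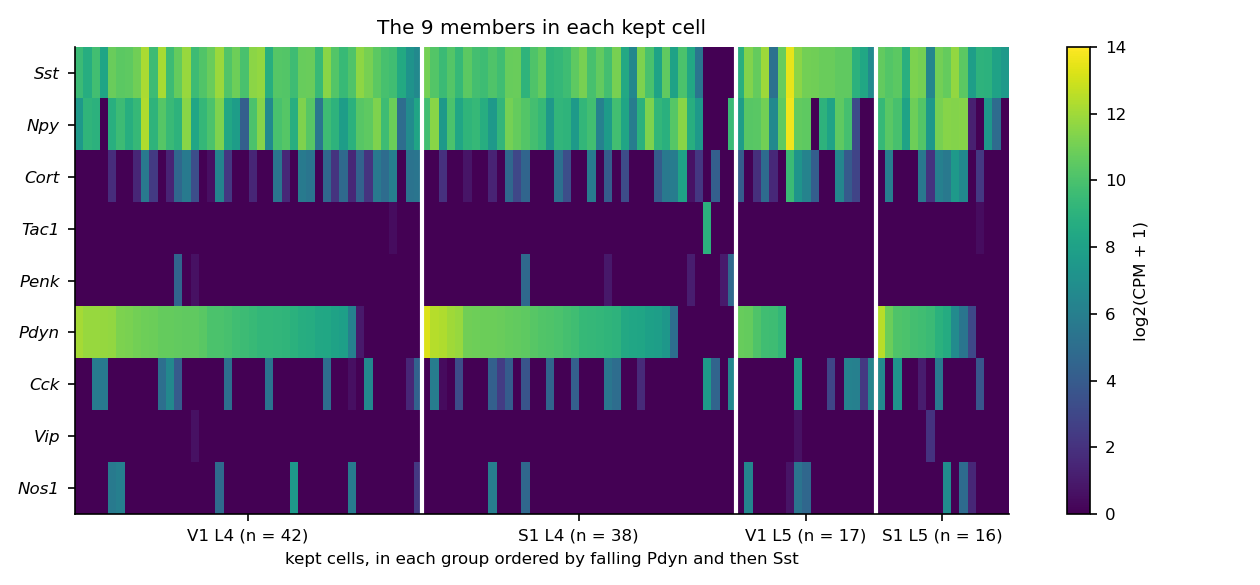
The 9 genes (lines) in each kept cell (columns), coloured by log2(CPM + 1) from 0 (dark) to 14 (yellow) and ordered within each group by falling *Pdyn* and then *Sst*. *Sst* and *Npy* run through nearly all cells, the *Pdyn* block ends after 6 of 17 cells in V1 L5, and the single bright *Tac1* cell lies among the S1 L4 cells without *Sst*.

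The areas were compared first in L4, where the study asked whether SOM+ cells of V1 and S1 differ. Of the 9 genes, only *Sst* differed by 1 log2 unit or more in mean level between areas, beside 14.7% of the 10061 genes with at least 32 reads in at least 10 cells. The 6 of the 9 genes that pass this filter are *Sst*, *Npy*, *Cort*, *Pdyn*, *Cck* and *Nos1*. The mean of *Sst* was 8.68 in S1 and 10.20 in V1, a difference of -1.52. The SD over 5 recording days with at least 2 cells of each area was 1.55, larger than the difference. S1 was lower in 5 of 5 days, by -3.28, -3.13 and -3.02 on days 2, 3 and 5 and by -0.48 and -0.16 on days 7 and 8. The difference was -2.38 in the first series and -0.60 in the second. Without the 4 S1 cells that had no *Sst* read it was -0.50, below 1 log2 unit.

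The other genes differed by less than 1 log2 unit between areas of L4 over all cells. *Npy* differed by -0.57 (SD over days 1.88), and by 0.14 without the 4 cells that lacked *Sst*. *Cort* differed by -0.62 (SD 2.19), and both genes had both signs among the days. *Pdyn* had a mean of 8.10 in S1 and 8.09 in V1, a difference of 0.01 (SD 1.72), and of 0.97 without those 4 cells. *Cck* was higher in S1 in 4 of 5 days (0.35, SD 1.42) and *Nos1* lower in 4 of 5 days (-0.49, SD 1.22), each within its SD. The mean of the 5 within-day differences of *Nos1* was -1.14, past 1 log2 unit, with reads in 2 S1 and 6 V1 cells. *Tac1*, *Penk* and *Vip* differed by 0.23, 0.21 and -0.01.

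In L5 the area difference lay in *Pdyn*. It was present in 12 of 16 cells from S1 and 6 of 17 from V1, and its mean was 6.58 in S1 and 3.54 in V1. The difference of 3.05 was past 1 log2 unit, as for 30.5% of tested genes, and 0.36% of tested genes had a larger one. It was within its SD of 3.76 over 4 days. S1 was higher by 2.13, 7.92 and 2.60 on days 3, 5 and 6 and lower by -1.17 on day 4. Day 5 carried much of it, with a difference of 1.35 when that day was left out. With 10 added to each CPM value in place of 1 it was 1.82, and with each cell thinned to 250000 reads 1.89. The other genes differed by less than 1 log2 unit, among them *Sst* by -0.51 (SD 0.51, lower in S1 on 3 of 4 days), *Npy* by 0.07 and *Cort* by -0.50. The median difference of all tested genes was 0.22 in this comparison and 0.03 in L4.

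The layers were compared among cells of the first series, which alone holds both. In V1, *Pdyn* was lower in L5 than in L4, with a mean of 3.54 beside 7.41, a difference of -3.88. It was read in 6 of 17 L5 and 17 of 21 L4 cells. Only days 3 and 5 had at least 2 cells of each layer, with differences of -6.29 and -7.96 (SD 1.18), and 0.08% of tested genes differed more. When day 5 was left out the difference was -2.70, and with 10 added to each CPM value it was -2.49. *Npy* was also past 1 log2 unit, as were 32.7% of tested genes, with a mean of 7.79 in L5 and 9.48 in L4. Its difference of -1.69 was within its SD of 3.03, with -4.55 on day 3 and -0.26 on day 5, and it was -0.91 without day 3. The medians of *Npy* went the other way, 9.85 in L5 and 9.67 in L4, since 3 L5 cells and 0 L4 cells of this series were without a read. *Sst*, *Cort*, *Cck* and *Nos1* differed by -0.37, -0.03, 0.52 and 0.10.

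In S1, *Sst* was higher in L5 than in L4 by 1.495, with a mean of 9.65 beside 8.15, and by 1.48, 2.07 and 2.80 on days 3, 4 and 5 (SD 0.66). It was the only one of the 9 genes past 1 log2 unit, beside 28.3% of tested genes. This difference came with the 4 L4 cells that had no *Sst* read, all of the first series: without them L5 was lower by -0.54. With 10 added to each CPM value it was 0.85, below 1 log2 unit. *Cort* was higher in L5 on 3 of 3 days, by 3.48, 2.69 and 1.80, but by 0.86 over all cells of the series, since days 2 and 6 also enter that mean. *Pdyn* was lower in L5 by -0.87 (SD 2.02), with -2.34 and -3.15 on days 3 and 4 and 0.67 on day 5, and by -2.73 among cells with an *Sst* read. *Npy*, *Nos1* and *Cck* differed by 0.11, 0.83 and 0.28. Among cells with an *Sst* read, *Npy* was lower in L5 by -1.24 and *Cck* higher by 1.13, both past 1 log2 unit. *Cort* and *Pdyn* were past it as the mean within days, at 2.66 and -1.61. The median difference of all tested genes was 0.10 between layers in V1 and 0.19 in S1.

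**Figure D3:**
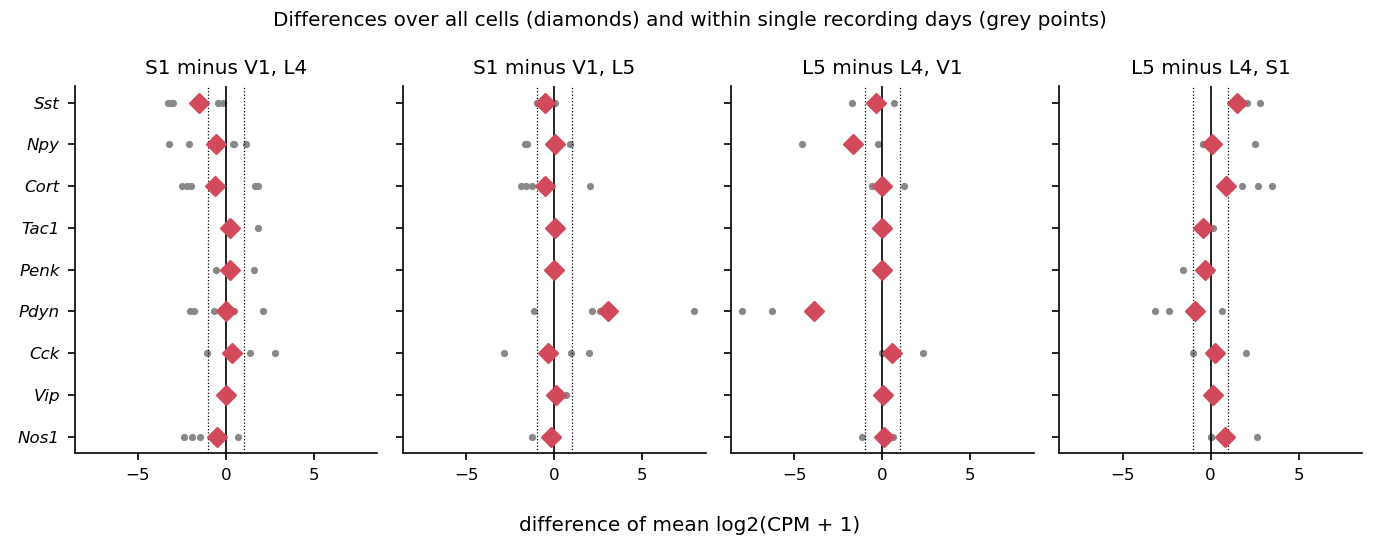
Difference of mean log2(CPM + 1) for each of the 9 genes in the 4 comparisons. Diamonds are over all cells, grey points are single recording days with at least 2 cells of each group, and dotted lines mark 1 log2 unit. *Sst* lies past the line in S1 minus V1 of L4 (-1.52) and L5 minus L4 of S1 (1.495), and *Pdyn* in S1 minus V1 of L5 (3.05) and L5 minus L4 of V1 (-3.88).

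The 9 genes were then set against each other within cells. Over the kept cells, 4 of 36 pairs had a Pearson r of 0.3 or more on log2(CPM + 1), beside 2.24% of all pairs of tested genes. The cells share animals, days, slices and depth, and the values are a description. The closest pair was *Sst* and *Npy*, with r = 0.61 (Spearman's rho 0.67) and reads of both in all but 10 cells. The r was 0.63 in V1 and 0.75 in S1 of L4, 0.63 and 0.73 in L5, and 0.19 to 0.93 within the 7 days with at least 10 cells. With each cell centred on its day and group it was 0.64. By rank, S1 L4 was the lowest group rather than the highest, with a rho of 0.42, and 3 of its cells had neither gene. The rho was 0.73 in the V1 cells of that layer, and 0.71 (V1) and 0.77 (S1) in L5. *Npy* and *Cort* had r = 0.37 (rho 0.45), and 61 of the 64 cells with *Cort* also had *Npy*, a gene read in 92.0% of all kept cells.

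The relation of *Pdyn* to *Sst* and *Npy* was weaker by rank than by level. Its r was 0.37 with *Sst* and 0.36 with *Npy*, but rho was 0.19 and 0.14, and among cells with an *Sst* read r fell to 0.22 and 0.29. All 84 cells with *Pdyn* had *Sst*, and 83 had *Npy*, genes read in all but 4 and all but 9 of the kept cells. By group, r of *Npy* and *Pdyn* ran from -0.05 in V1 L4 over 0.29 in V1 L5 and 0.50 in S1 L4 to 0.74 in S1 L5. *Cort* and *Pdyn* went the other way, with r = -0.24 (rho -0.27), and r was negative in each of 7 days, from -0.57 to -0.09. By group it was -0.42 and -0.20 in L4 of V1 and S1 and -0.26 in V1 L5, but 0.26 (rho 0.01) in S1 L5. They shared 46 cells, while 18 cells had *Cort* alone of the pair and 38 *Pdyn* alone. *Cort* is sparse and this r is weak, so it is given as a value only.

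**Figure D4:**
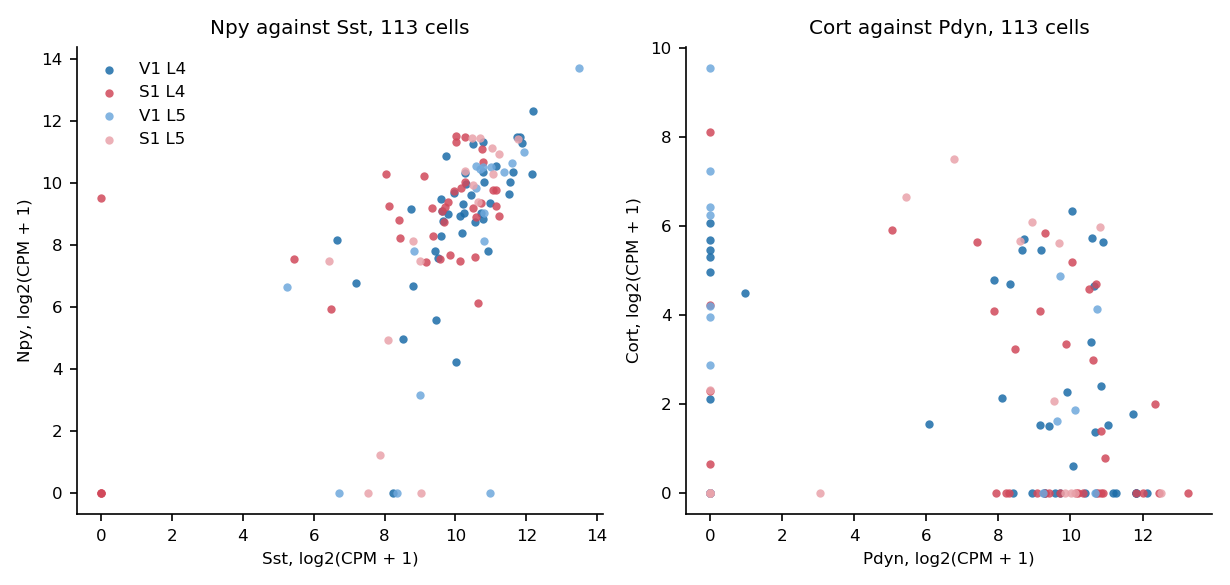
Left, *Npy* against *Sst*, and right, *Cort* against *Pdyn*, both in log2(CPM + 1), with 1 point for each kept cell coloured by group. *Npy* rises with *Sst* (r = 0.61), while the highest *Cort* levels, up to 9.54, lie at a *Pdyn* of 0 or at middle levels of *Pdyn*.

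A cell had reads of 4 of the 9 genes in the median, from 1 to 7. The number was 1 in 2 cells, 2 in 9, 3 in 29, 4 in 53, 5 in 13, 6 in 6 and 7 in 1. The most frequent set was *Sst*, *Npy*, *Cort* and *Pdyn* (28 cells), followed by *Sst*, *Npy* and *Pdyn* (21 cells) and the latter with *Cck* (12 cells). In V1 L5, 4 of 17 cells had the first set and 1 the second, beside 13 and 8 of 42 V1 L4 cells. With a minimum of 10 reads the order of the first pair turned, with 35 cells of *Sst*, *Npy* and *Pdyn* and 18 that also had *Cort*.

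The 4 cells without *Sst* differed in their reads of the other peptides, and the cell of day 4 had almost none. The cell of day 2 had 572 *Tac1* and 220 *Cck* reads with 844 of *Pvalb*, the gene of the calcium-binding protein parvalbumin. The cell of day 3 had 21 *Cort*, 26 *Cck* and 601 *Pvalb* reads, and that of day 4 had 3 *Penk* and 2662 *Pvalb* reads. These 3 *Penk* reads are no more than a count of 0 was taken to allow, and no other peptide gene described here was read in that cell. The cell of day 5 had 226 *Npy*, 8 *Penk*, 28 *Cck* and 29 *Pvalb* reads. *Pdyn*, *Nos1* and *Vip* were at 0 in all 4, and *Npy* in 3. The presence of *Pvalb* reads was not particular to these cells, since 22 of the 38 S1 L4 cells had them, but the level was above the group median in each. It was 9.57, 8.97, 9.85 and 6.58 in the cells of days 2, 3, 4 and 5, beside a median of 1.80 over the 38 cells. Cells without a *Pvalb* read enter this median.

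At the other end, 1 V1 L5 cell of day 4 had the highest *Sst* (17906 reads, 13.49), *Npy* (20749 reads, 13.71) and *Cort* (1157 reads, 9.54) of all kept cells. *Pdyn*, *Cck*, *Penk*, *Tac1* and *Vip* were at 0 in it and *Nos1* had 1 read. It gave 40.9% of the *Sst* and 60.7% of the *Npy* reads of V1 L5. Without it, the difference in *Pdyn* was 2.83 between areas in L5 and -3.66 between layers in V1, and the r of *Sst* and *Npy* was 0.60.

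Receptors for the 9 products were read from a list of 20 genes, of which 7 passed the filter. The most frequent were *Gucy1b3* (79 cells, mean level 4.34) and *Gucy1a2* (61 cells, 2.64), subunits of guanylyl cyclase, the receptor of nitric oxide, and *Oprd1* (69 cells, 3.495), the delta opioid receptor for enkephalin. *Cckar* and *Vipr2* were at 0 in all kept cells. Past 1 log2 unit, 1 gene of the list was higher and 1 lower in S1 than V1 in L4, 1 and 2 in L5, 2 and 0 in L5 against L4 of V1, and 1 and 0 of S1. These are 2, 3, 2 and 1 of 20 genes, beside 14.7%, 30.5%, 32.7% and 28.3% of tested genes. The shares are not alike, since tested genes all pass the filter and only 7 of the 20 do. All genes counted here but *Sstr4* are among the 7. In L4 the 2 genes are thus a larger share of the 7 than 14.7%, which was not tested. The medians of the list were -0.01, 0.03, 0.00 and 0.00 in these comparisons.

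*Sstr1*, a somatostatin receptor, was the only gene of this list lower in S1 past 1 log2 unit in both layers. In L4 it was read in 22 of 42 V1 and 8 of 38 S1 cells, with means of 2.97 and 1.11, a difference of -1.86. The difference was within its SD of 1.93 and negative on 5 of 5 days, with day values from -5.02 to -0.008. In L5 it was read in 10 of 17 V1 and 5 of 16 S1 cells and differed by -1.48 (SD 2.07). *Npy1r*, a receptor of neuropeptide Y, was read in 7 of 17 V1 L5 cells but in 4 of 42 V1 L4, 2 of 38 S1 L4 and 3 of 16 S1 L5 cells. It differed by -1.49 between areas in L5 (SD 1.37, lower in S1 on 4 of 4 days) and by 1.96 between layers in V1 (SD 1.72, with both signs on 2 days). *Gucy1b3* was higher in S1 L4 by 1.03 on average and on 5 of 5 days (SD 0.68), and higher in V1 L5 than L4 by 1.12 over all cells, but with a mean of -0.45 within 2 days of opposite sign (SD 1.55). *Gucy1a2* was higher in L5 of S1 by 1.04 with an SD of 4.40, and *Sstr4*, below the filter, was higher in S1 L5 than V1 L5 by 1.25 (SD 1.45).

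**Figure D5:**
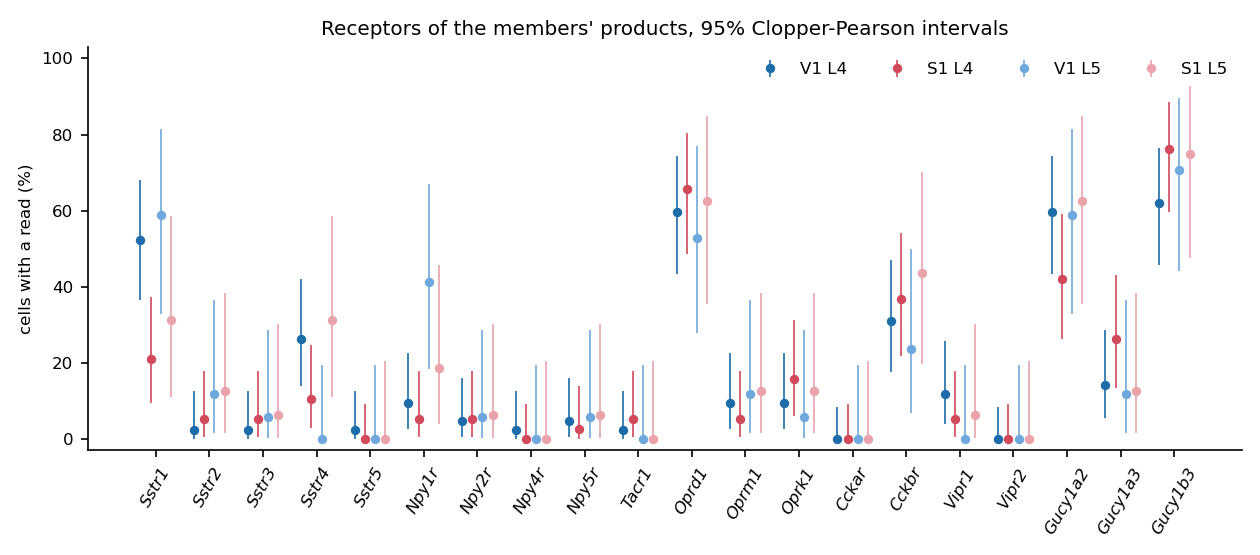
Share of cells with at least 1 read (percent, vertical axis) for 20 receptor genes in both areas and layers, with 95% Clopper-Pearson intervals. *Gucy1b3*, *Oprd1* and *Gucy1a2* are the most often read, *Sstr1* is read in 22 of 42 V1 L4 but 8 of 38 S1 L4 cells, and *Npy1r* is most frequent in V1 L5 (7 of 17 cells).

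Of 17 other genes for neuropeptides and dense-core vesicle proteins, 6 passed the filter. The granins *Scg2* (all but 5 cells, mean level 9.02) and *Chgb* (8.75) and the precursor *Vgf* (every kept cell, 8.205), parts of the vesicles that store peptides, were the highest. *Scg2* was lower in L5 in both areas, by -2.07 in V1 and by -1.98 in S1, where it was lower on 3 of 3 days with an SD of 0.24. Between areas in L5, it was higher in S1 by 1.13 (SD 2.22). In all, 1 gene of the list was higher and 1 lower past 1 log2 unit in S1 than V1 in L4, 2 and 0 in L5, 2 and 2 between layers in V1, and 1 and 1 in S1. The 2, 2, 4 and 2 genes are all among the 6 past the filter that tested genes pass. As shares of these 6 they are above the 14.7%, 30.5%, 32.7% and 28.3% of all tested genes. The list is short and was chosen with earlier results of these data known, and the shares were not tested.

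*Crh*, the gene of corticotropin-releasing hormone, was the peptide gene of this list with the largest layer differences. It was read in 9 of 17 V1 L5 and 9 of 16 S1 L5 cells, but in 5 of 42 V1 L4 and 1 of 38 S1 L4 cells. L5 was higher than L4 by 3.33 in V1 (SD 0.51, 2 of 2 days) and by 4.28 in S1 (SD 2.75, 3 of 3 days). In L5, *Crh* levels were negatively related to those of *Pdyn*. In V1 L5, 1 cell had both, 8 had *Crh* alone, 5 *Pdyn* alone and 3 neither (r = -0.67). In S1 L5, 5 cells had both, 4 *Crh* alone, 7 *Pdyn* alone and 0 neither (r = -0.80), and the median *Pdyn* was 3.05 in cells with and 9.68 in cells without a *Crh* read. *Pnoc*, the nociceptin precursor, was higher in S1 than V1 by 1.53 (SD 1.89) in L4 and by 1.30 (SD 2.94) in L5 cells, and higher in L5 than L4 of V1 by 1.37 (SD 1.20). *Nppc*, the precursor of C-type natriuretic peptide, was lower in S1 L4 by -1.42 (SD 1.65) and lower in L5 than L4 of V1 by -2.19, with nearly the same value on both days.

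For each of the 6 genes past the filter, the most alike genes were found by r over the kept cells among 10060 genes. For *Sst* they were *Synpr*, a synaptic vesicle protein (0.61), *Npy* (0.61) and *Chl1*, a cell adhesion protein (0.48). The r of *Synpr* was 0.61 and 0.71 in L4 of V1 and S1 but 0.23 and -0.23 in L5. By rank over the kept cells, *Synpr* had a rho of 0.34 with *Sst*, beside 0.67 for *Npy*. For *Npy* they were *Vgf* (0.63), *Crhbp*, which encodes the binding protein of corticotropin-releasing hormone (0.61), and *Sst*. The r of *Npy* with *Vgf* was 0.55 to 0.71 in the 4 groups. For *Pdyn* they were *Reln*, the gene of the secreted protein reelin (0.55), *Olfm3* (0.48) and *Cpne5* (0.47). All 31 S1 L4 and all 12 S1 L5 cells with *Pdyn* had *Reln* reads, as did 34 of 35 V1 L4 and 4 of 6 V1 L5 cells. *Reln* was read in 35 of all 38 S1 L4, 16 of 16 S1 L5, 40 of 42 V1 L4 and 13 of 17 V1 L5 cells, so that these counts are near its share in each group.

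The lists of the sparser genes were looser. For *Cort* they were *Rbp4* (0.46), *Moxd1* (0.42) and *Lgals1* (0.42). *Nos1* was most like *Calb1*, the gene of calbindin (0.39), which was read in 14 of the 15 *Nos1* cells and in 53 of the other cells, and then *Mpg* (0.36) and *Peli3* (0.35). Among those of *Cck* were *Arpp21* (0.44) and *Nrgn* (0.38), both known from principal neurons.

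Markers of other cells moved with *Cck*. The r of *Cck* with summed marker lists was 0.33 for excitatory neurons, 0.30 for astrocytes, 0.28 for microglia and 0.25 for oligodendrocytes. Reads of the 6 excitatory genes were found in 23 of 38 cells with and 21 of 75 cells without *Cck*. Their sum ranged from 0 to 134.6 CPM in the former and from 0 to 338 CPM in the latter. The 6 microglia genes had a median sum of 163.3 CPM in cells with *Cck* and 30.98 CPM in those without. Their part in the *Cck* reads was not tested. None of these excitatory and glial lists had an r above 0.18 with *Sst*, *Npy* or *Pdyn*. The sum of *Pvalb*, *Itm2a* and *Reln*, listed as markers of a parvalbumin cell type, had an r of 0.44 with *Pdyn*, with medians of 752 CPM in cells with and 117.2 CPM in cells without *Pdyn*. *Reln* was read in 92.0% of cells with a mean level of 7.91, *Pvalb* in 40 cells (1.70) and *Itm2a* in 5 (0.23), and *Reln* is itself the gene most like *Pdyn*. The excitatory sum was at most 338 CPM in any kept cell. This limit is set in part by the rule that kept cells, since *Slc17a7* is in the list and entered the rule. The V1 L5 cell left out by it had 770 CPM of *Slc17a7*.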

How the data were processed

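Counts of reads per gene and RPKM values were deposited for 118 cells, and 113 were kept. The authors aligned single-end reads to mm10 with STAR 2.4.2a (bcl2fastq 2.20 is also named in the submitters' processing notes) and deposited raw counts without normalization. The deposited RPKM values were computed by the authors with rpkmforgenes and RefSeq models and were used here to compare genes. Entries sharing a symbol were summed (24490 entries, 23998 symbols). No column of another series was found, and 0 columns of per-sample values were left unused. Counts were scaled to the cell total, with a pseudocount of 1, and differences are of means over cells. The 9 genes and all gene lists were chosen with earlier results of these data known. The genes most alike are the 3 with the highest r, and of each list the 3 with the highest mean and those past 1 log2 unit are named, at most 10. One gene these rules would name, and the sums that hold it, are not reported here. A count of 0 was taken to allow up to 3 counts. Functions were tested on simulated counts. Alternatives were another pseudocount, TMM factors, RPKM, thinning (random seed 1), stricter cells and reads, single series and each day left out. Coordinates and overlaps are from GENCODE M21 (GRCm38). Scripts ran in R 4.3.3 (edgeR 4.0.16, TMM factors only) and in Python 3.11.15 with matplotlib 3.10.9, SciPy 1.17.1, pandas 2.3.3 and NumPy 2.4.6. Electrophysiology and morphology were not analysed here.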

Additional observations from a re-analysis of the deposited data

Results flagged for a closer look

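Reads of the genes were also found in 3 of the 5 cells that enter no comparison, above the 3 counts that a count of 0 allows. A V1 L4 cell of day 2 with 745 detected genes and 99195 reads held 269 reads of Sst, 95 of Npy and 31 of Cort, beside 1 of Gad1. A V1 L4 cell of day 3 with 1153 detected genes and 255640 reads held 2075 of Sst, 387 of Npy and 356 of Pdyn, beside 0 of Gad1 and 3 of Gad2. The V1 L5 cell of day 5 left out for its 585 Slc17a7 reads, with 759764 reads and 6977 detected genes, held 271 of Sst and 1498 of Cck, while Gad1 and Gad2 were at 0. Its Cck count is above the highest of any kept cell, 405. The other 2 cells had 1378 and 580 reads in all. No value was checked for standing apart within its group by replicates, since each area and layer was 1 sample.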

How the results depend on the processing

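No paired analysis was possible because no result comes from a test and the labels name no animal, but groups share recording days, and the differences within days pair them by day. The number of the 9 genes past 1 log2 unit in S1 minus V1 of L4 was 1, but 0 among cells with an Sst read and in the second series alone, 2 (Sst and Nos1) as the mean within days, 3 (Sst, Npy and Cort) in the first series alone, and 1 to 3 with a day left out (3 without day 7). In L5 it was 1, and 1 to 2 with a day left out, where Cort joined Pdyn without day 3 and Cck without day 6. In L5 minus L4 of V1 it was 2, and 1 to 3 with a day left out (only Pdyn without day 3). In L5 minus L4 of S1 it was 1, but 0 with a pseudocount of 10, 2 in RPKM, 3 when thinned, with at least 4000 detected genes or as the mean within days (Sst, Cort and Pdyn each time), 3 among cells with an Sst read (Npy, Pdyn and Cck), and 1 to 3 with a day left out. There the Sst difference reversed to -0.54 among cells with an Sst read. The median number of genes read per cell was 4, and 3 with at least 10 counts. Pairs with r of 0.3 or more were 4, but 2 by Spearman's rho and 2 among cells with an Sst read, and 3 to 4 with a day left out (3 without day 3). Over all genes with a count, 8.47%, 18.3%, 19.5% and 16.99% were past 1 log2 unit in the 4 comparisons, lower than among the 10061 tested genes because genes with few reads enter. With at least 10 counts, 37.2% of cells had Cort, 1.77% Penk and 0% Vip.

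Of 612 differences recomputed under the alternatives, 588 moved by less than the spread over days, 23 by more and 1 reversed. A reversal was counted only for differences of 1 log2 unit or more over all cells. Smaller differences that changed sign are among the others. For example, Npy in S1 minus V1 of L5 was 0.07 over all cells and -0.52 as the mean within days. The r of 6 named pairs kept its sign in 90 of 90 recomputations, though that of Pdyn with Sst and with Npy fell to 0.22 and 0.29 among cells with an Sst read and to 0.19 and 0.14 by rank. TMM factors moved Sst in S1 minus V1 of L5 from -0.51 to -0.36. Leaving out the V1 L5 cell with the most Npy was chosen after seeing the data and changed no call. Thinning left out 3 shallow cells. The causes of these changes were not tested. Without animals in the labels, days stand in for replicates, and between layers of V1 there are only 2.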
